A study of Mus musculus with 2 samples.

Results

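The genes described here are those of name-defined groups of chromatin modifying and remodelling enzymes and their partner subunits: histone deacetylases (Hdac), sirtuins (Sirt), lysine demethylases (Kdm), SET-domain proteins (Setd), Smarc and Chd remodellers, the core of Polycomb repressive complex 2 (Ezh1, Ezh2, Suz12 and Eed), DNA methyltransferases and Tet enzymes, Arid proteins and Brd bromodomain proteins. The rule matches gene symbols and uses no measured value. They number 95 of the 22072 symbols in the tables. Expression was measured by RNA-seq in 2 libraries of sorted lung cells from adult mice, 1 per genotype, with the RNA of 4 mice mixed before sequencing. Control mice were tetOCre/Mst1-flx/flx;Mst2-flx/flx. The other mice carried the same alleles and in addition Scgb1a1-rtTA, a doxycycline-dependent activator driven by the promoter of the club cell gene Scgb1a1, and theirs is the library labelled Mst1/2-deleted. Where a pair of values is printed, the control library comes first. All mice were fed doxycycline (625 mg/kg of food, 16 days). Cells were sorted as Lin-/CD326+/CD24-intermediate, a gate chosen to favour the secretory, non-ciliated cells lining the airways. Besides the intended deletion, the genotypes differ in the activator and in Cre activity, and these effects cannot be told apart. With 1 library per genotype there is no replicate error, so every difference below is a difference between these libraries and no p-value is given.

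DNA in the nucleus is wound on histones, and whether a gene can be read depends partly on chemical marks on histone tails and on DNA and on where the histones sit. Writers such as SET-domain methyltransferases and Dnmt enzymes place marks, erasers such as Hdac, Sirt, Kdm and Tet enzymes take them off, readers such as bromodomain proteins bind them, and ATP-driven remodellers of the BAF (SWI/SNF), ISWI and CHD families slide or evict histones. Mst1 (Stk4) and Mst2 (Stk3) are kinases of the Hippo pathway, which holds back the coactivators Yap and Taz. Yap and Taz act at enhancers, where chromatin proteins also work.

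Depth, estimated from the coverage column, was about 8770000 reads for the listed transcripts of the control library and 8340000 for those of the other. FPKM, the deposited unit, counts fragments relative to the length of the transcript and to library size. Stk3 stood at 7.28 and 7.09 FPKM and Stk4 at 5.38 and 4.71, so the whole-transcript level of the targeted genes hardly separates the libraries. A whole-transcript value does not resolve single floxed exons. Summed markers of club cells were 11938 and 10184 FPKM, those of alveolar type 2 cells 11177 and 13976, and those of alveolar type 1 cells 114 and 297 FPKM (7 of 9 alveolar type 1 genes at least 1.5-fold higher on the log2 scale of FPKM + 1). Summed ciliated markers were 32.3 and 51.2 FPKM, leukocyte markers 12.4 and 4.66, basal markers 21.8 and 7.48, mucous markers 29.6 and 10.1, mesenchymal markers 18.7 and 7.54 and endothelial markers 10.4 and 6.22. Cyp2f2 and Gsta3 (club), Cd79a (leukocyte), Cdh5 and Cldn5 (endothelial), Col1a1 (mesenchymal) and Cav1 (alveolar type 1) did not follow their sums. Dcn (11.9 and 3.79 FPKM) gave most of the mesenchymal sum and Kdr (9.05 and 5.11) most of the endothelial sum. Scgb1a1 itself, whose row carries the status HIDATA (too many reads for an estimate), is listed at 0 in both libraries. Marker levels of other cell types thus differed beside the values below, and their part in these was not tested. In such bulk RNA, fewer cells of a type and less RNA per cell cannot be told apart.

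Of the 95 chromatin genes, 80 (84.2%) reached 1 FPKM in at least 1 library, against 45.1% of all symbols. Of the 7463 other genes of similar transcript length (2707 to 6514 bases), 56.2% did. In both libraries 77 stood at 1 FPKM or more and 11 at 10 FPKM or more. Most were moderate: 67 had a mean between 1 and 10 FPKM. Their median was 5.13 and 5.71 FPKM, with 3.68 and 3.93 for all genes at the same minimum and 3.47 and 3.76 for those of similar length. The order of the 80 levels was nearly shared by the libraries (Spearman rho 0.981 across genes, which are not independent replicates and share the processing), and the median gene had about 635 and 636 reads.

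The 15 genes below the minimum include several known best from germ cells, early embryos or neurons. Dnmt3l, the catalytically inactive partner of the de novo methyltransferases, Arid3c and the Y-linked demethylase Kdm5d were listed at 0 in both libraries. Uty, a Y-linked gene outside the set, was near 0 as well (3.24e-06 and 0.000138 FPKM). The part of sex in the Kdm5d value was not tested. Dnmt3b, a de novo DNA methyltransferase, stood at 0.201 and 0.281 FPKM, Tet1 at 0.356 and 0.509, the neuronal remodeller Chd5 at 0.0628 and 0.0225, and the ISWI ATPase Smarca1 at 0.0383 and 0.165. Kdm4d was listed at 0 in the control library and at 0.124 FPKM in the other. Arid3a, Arid5a, Hdac6, Hdac9, Kdm4b, Setd4 and Smarcd3 lay between 0.433 and 0.901 FPKM in every library. These low genes enter none of the counts on FPKM below.

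Between the libraries the chromatin genes hardly differed, as was true of most genes. No gene of the 80 was 1.5-fold higher in the library labelled Mst1/2-deleted, on the log2 scale of FPKM + 1, where 3.02% of all 9945 genes at the minimum were, and none was 1.5-fold lower, where 2.59% of all genes were. Among the 4192 genes of similar transcript length (2707 to 6514 bases, the middle range of the chromatin genes) the shares were 2.5% and 1.24%. In either direction, 80 genes are too few for the absence of such genes to be read as below these shares. The differences ran from -0.42 to 0.48, with a median of 0.09 for the chromatin genes, 0.07 for all genes and 0.09 for genes of similar length. The median size of the difference regardless of sign was 0.13, 0.16 and 0.14 in the same order. A fold of 1.5 was reached on the plain FPKM ratio, without the added 1, by 3 genes upwards (Hdac8, Smarcd1 and Ezh2) and 2 downwards (Setd6 and Sirt4), all of them low. For Ezh2 and Sirt4 the highest row alone did not reach it. The share of all genes past 1.5-fold on the plain ratio was not taken, so these counts have no background here.

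**Figure D1:**
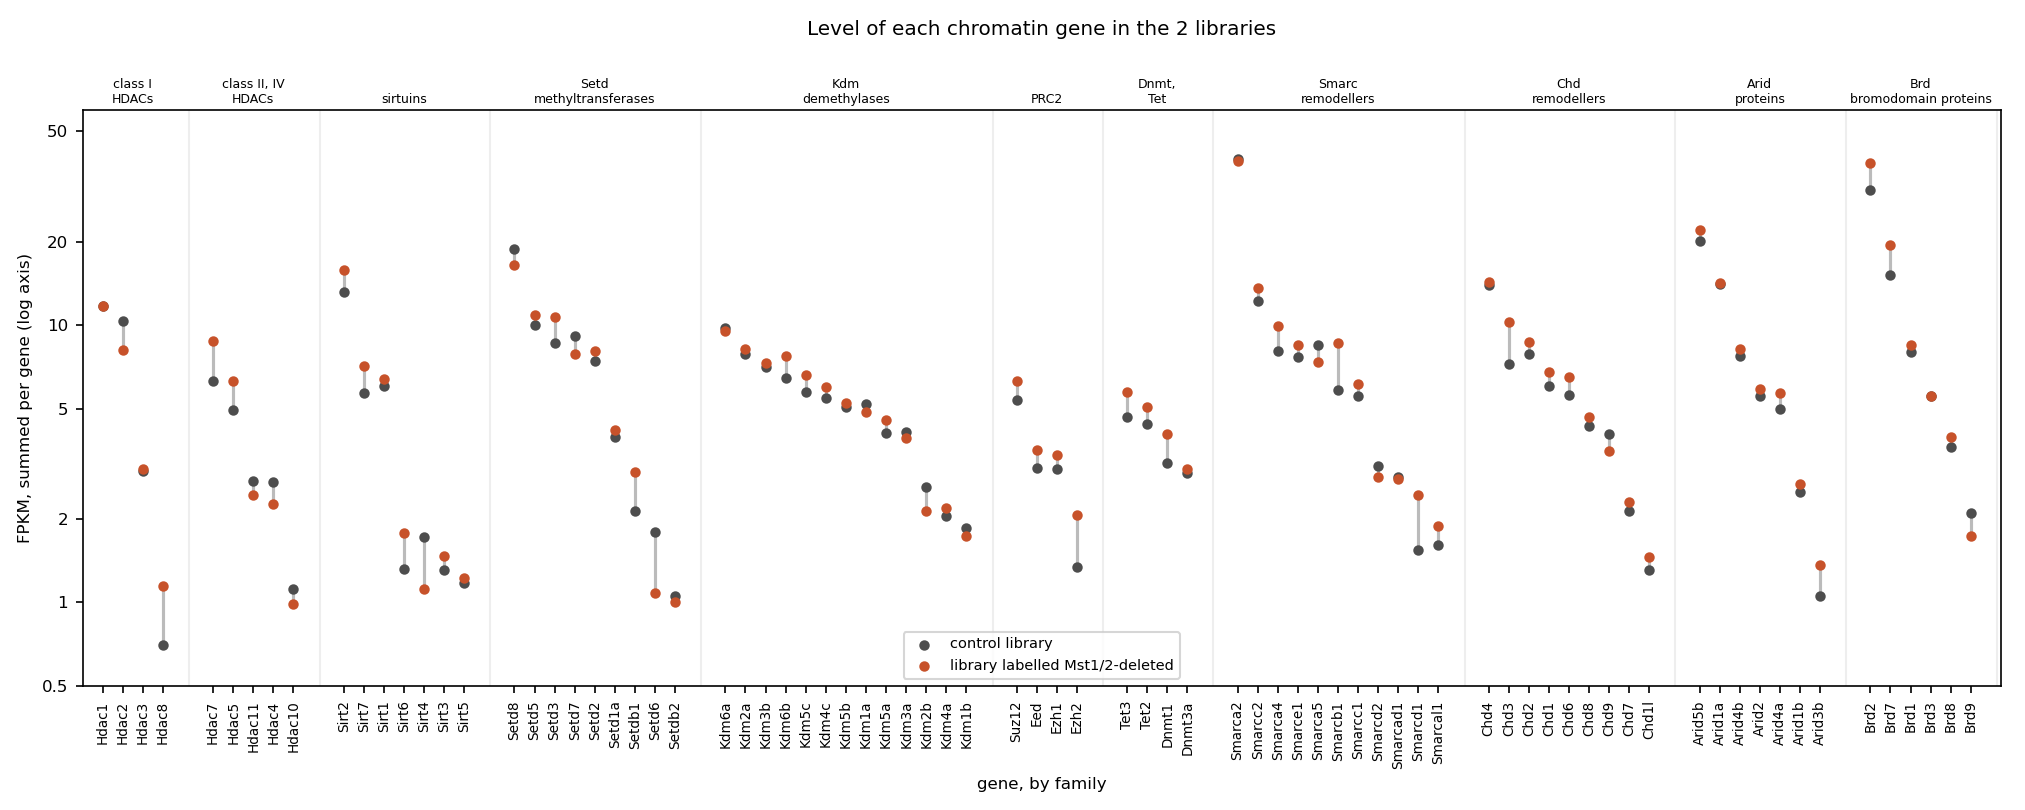
Summed FPKM (log axis) of 79 of the 80 chromatin genes at the minimum, grouped by family and ordered by mean level, with the control library in grey and the library labelled Mst1/2-deleted in orange. Each pair of points is joined by a line. Most pairs nearly touch, Smarca2 and Brd2 are the highest genes, and the longest lines belong to low genes such as Hdac8, Setd6 and Ezh2.

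The slight upward tilt was shared with other genes. Of the 80, 59 (73.8%) had a difference above 0, against 63.2% of all genes and 69.3% of genes of similar length. Across all genes the difference ran with transcript length: its median was -0.06 in the shortest length bin (57 to 982 bases) and 0.12 in the longest (6032 bases and above). Chromatin transcripts are long, with a median of 4619 bases against 2733 for all genes at the minimum. Each chromatin gene was therefore set against all other genes within 10% of its length, 81 to 1248 genes, whose medians lay between 0.04 and 0.14. After this subtraction 39 chromatin genes lay above and 41 below their neighbours, and the median excess was -0.01, with single genes between -0.49 and 0.43.

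**Figure D2:**
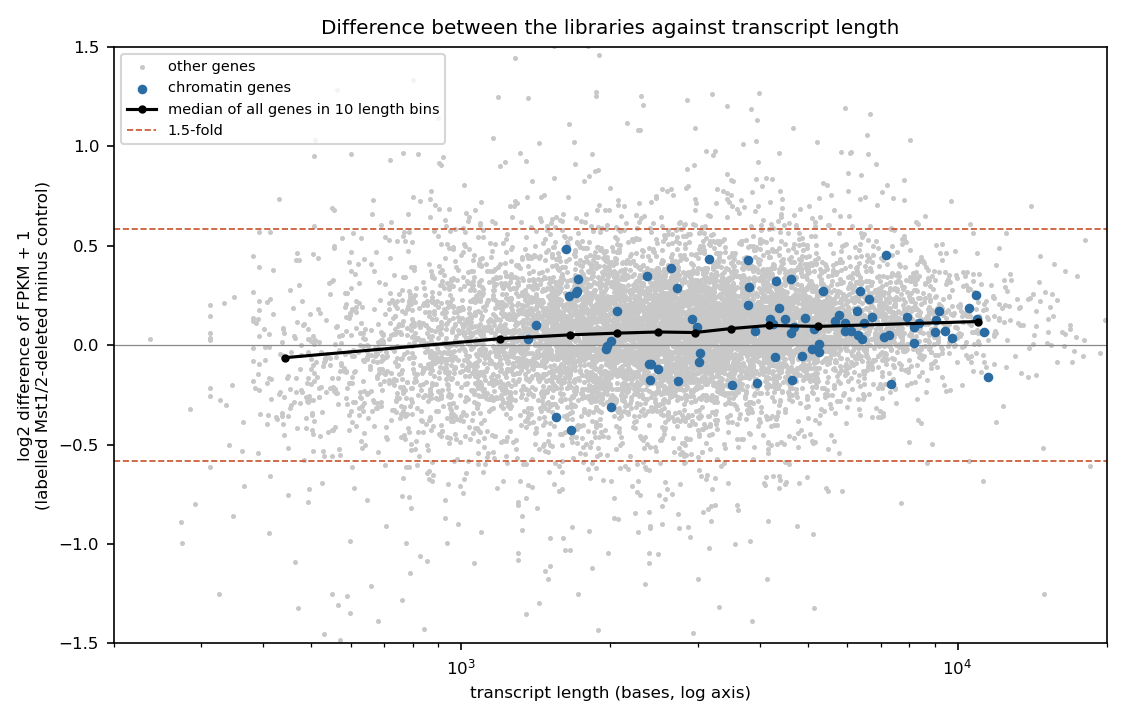
Log2 difference of FPKM + 1 (library labelled Mst1/2-deleted minus control) against transcript length on a log axis. Chromatin genes are blue, other genes grey, the black line is the median of all genes in 10 length bins and the dashed lines mark 1.5-fold; 160 other genes lie outside the axes. The blue points scatter on both sides of the black line, and none crosses a dashed line.

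Counting error was narrow enough to show small differences. For each gene an exact (Clopper-Pearson) 95% interval of the FPKM ratio (library labelled Mst1/2-deleted over control) was taken from approximate reads. It covers counting error only, and amplified reads are not independent molecules. Below, a ratio and its interval stand in parentheses, and where a gene is called lower the fold and interval are those of control over the other library. It lay above 1 for 31 chromatin genes and below 1 for 9, where 29.7% and 12.4% of all genes and 34.6% and 10.4% of genes of similar length did so. At 1.25-fold on the log2 scale of FPKM + 1, a threshold added after the values had been seen, 9 chromatin genes were higher (Smarcb1, Chd3, Smarcd1, Hdac7, Ezh2, Brd7, Hdac8, Setdb1 and Brd2) and 2 lower (Setd6 and Sirt4). The shares at 1.25-fold were 12.8% and 7.36% of all genes, and 12.1% and 4.51% of genes of similar length. Against these shares, 9 higher of 80 is close to the background, and 2 lower of 80 is too few genes to be read as below it.

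**Figure D3:**
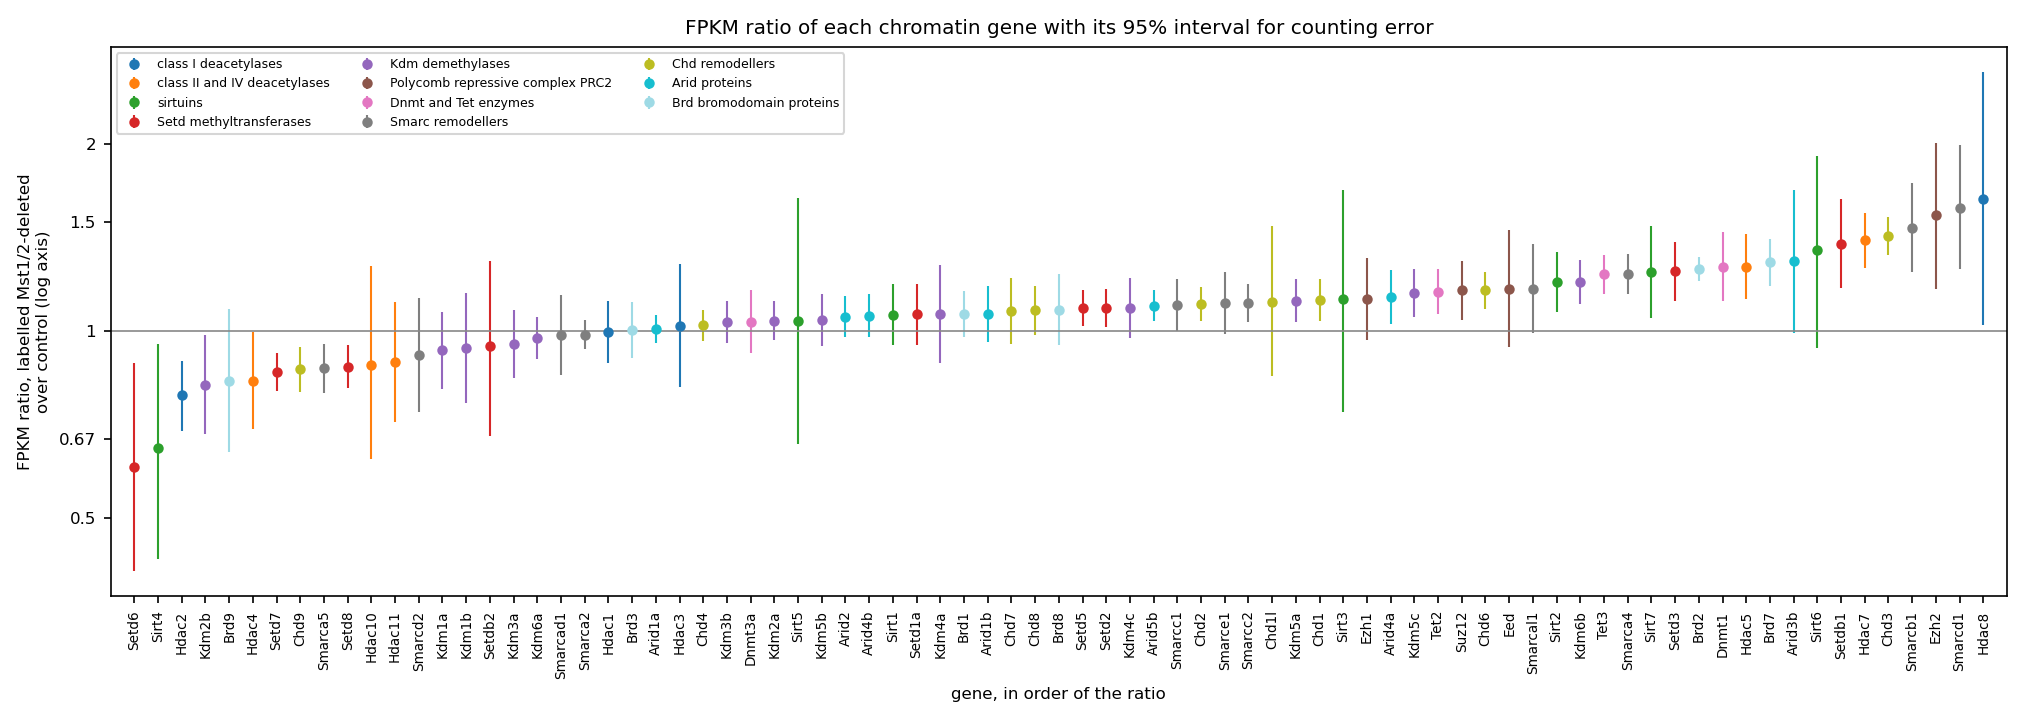
FPKM ratio of the library labelled Mst1/2-deleted over the control library (log axis) for 79 of the 80 chromatin genes in rising order, coloured by family. Bars are exact 95% intervals for counting error only. The middle of the row hugs 1, and the ends are low genes with wide bars, apart from narrower bars such as those of Hdac2, Chd3, Hdac7, Brd7 and Brd2.

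The BAF remodellers included the highest gene of all. Smarca2, which encodes the ATPase Brm, summed to 39.8 and 39.3 FPKM (ratio 0.987, interval 0.935 to 1.04). Its paralog Smarca4, which encodes the ATPase Brg1, stood at 8.05 and 9.94 FPKM (1.24, 1.15 to 1.33). The difference lay in a row of 6367 bases, with 0.00162 and 1.96 FPKM, while the rows of 6364 and 6376 bases were level, and by its highest row alone the log2 difference of Smarca4 was -0.03 instead of 0.27. Taken at face value Brm transcripts were 4.94 times and 3.95 times as high as Brg1 transcripts. That order turned on the transcript row. Of the Smarca2 sum, 84.4% came from a row of 1962 bases that begins inside the gene (mm9, chr19:26822893-26852811, plus strand) and had 33.6 and 33.0 FPKM. The row of 5813 bases that spans the gene (chr19:26679650-26852811) had 6.21 and 6.28 FPKM. Against Smarca4, the longer row alone was 0.771 and 0.631 times as high, so Brg1 led. Both rows share their last base, and about 1783 and 977 control reads were assigned to the shorter and the longer row. Among the 7 genes in the tables with a short row of this kind (at most 60% of the longer row's length, starting at least 1000 bases inside it and ending with it), the short row's median share was 21.0% in the control library, and Smarca2 had the highest share.

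The start of the longer Smarca2 row is shown because the inner row does not use it. Its window was paired to the row by gene symbol only. No window was found for the inner start, so the distance between the starts could not be checked. The window of 300 bases, from 250 before to 50 after the start, is from RefSeq (GRCm38.p6, chr19:26604910-26605209, plus strand), in lower case with each CpG in capitals:
Smarca2 longer row: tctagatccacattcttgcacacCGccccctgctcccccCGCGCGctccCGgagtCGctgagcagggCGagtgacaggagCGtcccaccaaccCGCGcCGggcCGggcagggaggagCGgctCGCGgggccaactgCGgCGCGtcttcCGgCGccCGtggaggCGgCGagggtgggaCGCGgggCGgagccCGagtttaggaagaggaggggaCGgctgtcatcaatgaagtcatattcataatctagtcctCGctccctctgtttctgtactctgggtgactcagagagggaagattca
It holds 29 CpG, and 12.9% of the 32851 windows in the RefSeq table hold as many. CpG-rich starts are common among broadly expressed genes. Of the chromatin genes at the minimum, 63 had a window, with a median of 24 CpG, against 21 for all genes at the minimum and 6 for genes below it. Chromatin genes below the minimum had nearly as many as the others, a median of 20 in 13 windows. Of the 63, 2 (3.17%) had fewer than 5 CpG, near the share of all genes at the minimum (5.36%). Below the minimum, 2 of 13 chromatin genes (15.4%) and 44.2% of all genes had fewer than 5.

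Of the other BAF subunits, Smarcb1 and Smarcd1 stood out by size. Smarcb1, which encodes the core subunit Snf5, stood at 5.86 and 8.60 FPKM, a log2 difference of 0.48, the largest of the 80, and an FPKM ratio of 1.47 (1.24 to 1.73). Smarcd1, a BAF60 subunit, stood at 1.55 and 2.45 FPKM (1.58, 1.26 to 1.99), while its paralog Smarcd2 stood at 3.10 and 2.84 (0.914, 0.741 to 1.13). By its highest row Smarcd2 was 2.37 and 2.84 FPKM, the opposite direction, and a row of 2755 bases had 0.731 and 6.19e-06. Smarcd2 made up 66.7% and then 53.7% of the pair's sum, the widest shift of the 12 pairs of related genes compared, and one that rests partly on that row. These pairs were chosen after the values had been seen. The scaffold genes Smarcc2, at 12.3 and 13.6 FPKM, and Smarcc1, at 5.56 and 6.13, kept a share of 68.8% and 68.9% for Smarcc2. Smarce1, a DNA-binding subunit, stood at 7.67 and 8.50 FPKM. The DNA-binding subunit Arid1a stood at 14.1 and 14.2 FPKM (1.01, 0.956 to 1.06) and made up 85.0% and 84.2% of its pair with Arid1b.

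**Figure D4:**
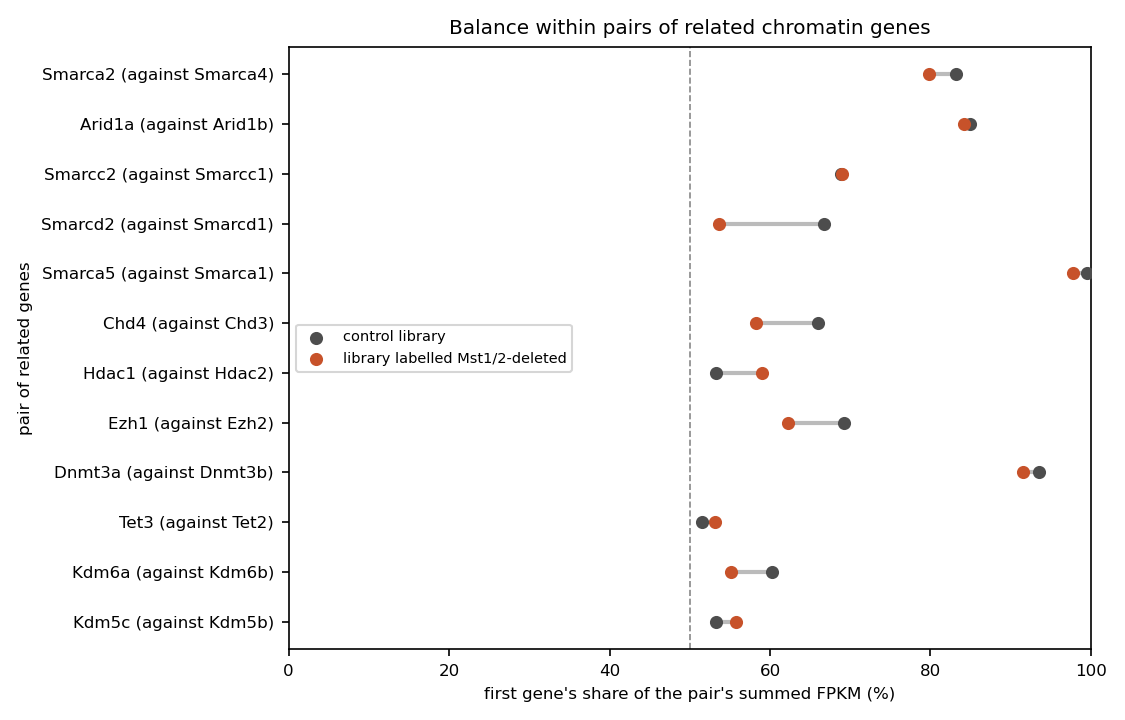
Share of the first gene in the summed FPKM of 12 pairs of related chromatin genes, with the control library in grey, the library labelled Mst1/2-deleted in orange and a dashed line at equal shares. In no pair do the points lie on opposite sides of that line, and the widest gaps are Smarcd2 with Smarcd1 and Chd4 with Chd3.

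Among remodellers outside BAF, Smarca5, the ISWI ATPase Snf2h, was 8.47 and 7.38 FPKM, 1.15-fold lower (1.05 to 1.26). It accounted for nearly all ISWI ATPase transcripts, 99.5% and 97.8% of its sum with Smarca1. Smarcad1 was 2.83 and 2.78 FPKM, and the DNA-annealing helicase Smarcal1 1.61 and 1.88. In the CHD family, Chd4 led with 14.0 and 14.3 FPKM (1.02, 0.964 to 1.08). Chd3, the alternative ATPase of the NuRD deacetylase complex, stood at 7.23 and 10.3 FPKM (1.42, 1.33 to 1.53), on about 1405 and 1789 reads. Chd4 thus made up 66.0% and 58.2% of the NuRD ATPase sum. Of the 9 CHD genes at the minimum, Chd9 was the only one lower in the library labelled Mst1/2-deleted, at 4.05 and 3.52 FPKM. Chd1, Chd2, Chd6, Chd7, Chd8 and Chd1l had log2 differences between 0.07 and 0.19.

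Among the Hdac genes, the class I enzymes Hdac1 and Hdac2 had the highest mean FPKM, although Hdac7 lay above Hdac2 in the library labelled Mst1/2-deleted. Hdac1 stood at 11.8 and 11.7 FPKM (0.997, 0.888 to 1.12). Hdac2, its partner in NuRD, Sin3 and CoREST complexes, stood at 10.3 and 8.13 FPKM, 1.27-fold lower (1.12 to 1.45). Hdac1 made up 53.3% and 59.0% of their sum. Hdac3, the enzyme of the NCoR and SMRT corepressors, was nearly level at 2.98 and 3.04 FPKM. Hdac8 had the lowest mean FPKM of the 80, at 0.702 and 1.15 FPKM (1.63, 1.02 to 2.61) on about 33 and 48 reads. Of the class II enzymes, Hdac7 stood at 6.27 and 8.78 FPKM (1.40, 1.26 to 1.55) and Hdac5 at 4.93 and 6.26 (1.27, 1.13 to 1.43), while Hdac4 stood at 2.72 and 2.26. Hdac7 overlaps Slc48a1 in the tables, as Chd2, Setdb1 and Sirt3 each overlap another gene, and reads of overlapping genes cannot be told apart without strand. Hdac10 and the class IV enzyme Hdac11 lay at 1.12 and 0.986 FPKM and at 2.73 and 2.43.

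The sirtuins are deacylases that use NAD. Sirt2, mainly cytoplasmic, was highest with 13.2 and 15.8 FPKM (1.20, 1.07 to 1.34), ahead of the nuclear Sirt1 (6.03 and 6.40) and the nucleolar Sirt7 (5.70 and 7.10). The Sirt2 difference lay in a row of 1816 bases, with 2.94 and 6.19 FPKM, and by its highest row its log2 difference was -0.06 instead of 0.25. The mitochondrial Sirt3, Sirt4 and Sirt5 and the nuclear Sirt6 lay between 1.12 and 1.78 FPKM in both libraries. Sirt4 had the largest difference of the family, 1.72 and 1.12 FPKM, 1.54-fold lower (1.05 to 2.33) on about 73 and 42 reads. Much of it lay in a Sirt4 row of 1645 bases, with 0.430 and 4.47e-05 FPKM. The Sirt4 row of 1553 bases had 1.29 and 1.12 FPKM, and the interval of its ratio spanned 1 (0.865, 0.567 to 1.33). Intervals of Sirt3, Sirt5 and Sirt6 spanned 1.

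Of the SET-domain proteins, Setd8, the writer of histone H4 lysine monomethylation, was highest with 18.8 and 16.5 FPKM, 1.14-fold lower (1.05 to 1.24). Setd7, which methylates histone H3 and other proteins, was also lower, at 9.14 and 7.86 FPKM, and Setd3, an actin histidine methyltransferase, higher, at 8.61 and 10.7. Setd2, the writer of trimethylation over transcribed gene bodies, stood at 7.42 and 8.09 FPKM, Setd5 at 9.999 and 10.9, and Setd1a, a COMPASS methyltransferase, at 3.95 and 4.20. Setd6, a methyltransferase of the NF-kB subunit RelA, had the lowest difference of all 80 genes, -0.42, from 1.80 to 1.08 FPKM. It was 1.66-fold lower (1.13 to 2.43) on about 81 and 44 reads. Setdb1, a heterochromatin methyltransferase, stood at 2.14 and 2.95 FPKM (1.38, 1.17 to 1.63), and its sequence relative Setdb2 at 1.06 and 0.999.

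On summed FPKM the demethylases were the flattest large family, with a median difference of 0.05 over 13 of 16 genes at the minimum. None was past 1.25-fold, where 12.8% of all genes were higher and 7.36% lower. The 13 genes are too few to be read as below these shares. With the highest row in place of the sum, Kdm2b, Kdm3a and Kdm4c were 1.5-fold lower. Kdm6a (Utx), which takes methyl groups off the Polycomb-marked lysine of histone H3, led with 9.78 and 9.53 FPKM (0.974, 0.901 to 1.05). Its paralog Kdm6b stood at 6.45 and 7.75 FPKM (1.20, 1.11 to 1.30), the largest difference of the family on the log2 scale of FPKM + 1. Kdm1a (Lsd1), the flavin-dependent enzyme, stood at 5.22 and 4.86 FPKM and Kdm1b at 1.85 and 1.73. Kdm2a, Kdm3a, Kdm3b, Kdm4a, Kdm4c, Kdm5a, Kdm5b and Kdm5c had differences between -0.06 and 0.17. Kdm2b, whose protein brings a Polycomb repressive complex to CpG islands, stood at 2.61 and 2.14 FPKM, 1.22-fold lower (1.01 to 1.46).

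The 4 PRC2 genes had a median difference of 0.18 and were all slightly above 0, as were 63.2% of all genes and 69.3% of those of similar length. The median was 0.10 with a pseudocount of 5 and 0.10 once genes of similar length were subtracted. Suz12 stood at 5.39 and 6.27 FPKM (1.16, 1.04 to 1.30), Eed at 3.05 and 3.56 (1.17, 0.943 to 1.45) and Ezh1, the catalytic subunit known from non-dividing cells, at 3.03 and 3.42 (1.13, 0.969 to 1.31). Ezh2, the catalytic subunit known from dividing cells, stood at 1.35 and 2.07 FPKM (1.54, 1.17 to 2.01). Its row of 2652 bases alone had 1.35 and 1.85 FPKM (1.37, 1.04 to 1.81), and a row of 2640 bases had 3.84e-05 and 0.223. Ezh1 led in both libraries, with 69.2% and 62.2% of the pair's sum. The proliferation genes Mki67 and Top2a stood at 1.05 and 1.35 FPKM and at 1.07 and 1.04, and the summed proliferation list at 31.9 and 35.7; their part in the Ezh2 value was not tested.

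The DNA methylation enzymes at the minimum were 4, all slightly above 0 (as were 63.2% of all genes), with a median difference of 0.21. With genes of similar length subtracted the median was 0.09 and Dnmt3a lay below its neighbours (-0.10), and with a pseudocount of 5 the median was 0.12. Tet3 and Tet2, which oxidise methylcytosine, stood at 4.66 and 5.75 FPKM (1.23, 1.15 to 1.33) and at 4.38 and 5.07. Dnmt1, the maintenance methyltransferase, stood at 3.19 and 4.06 FPKM (1.27, 1.12 to 1.44). Dnmt3a, a de novo methyltransferase, was nearly level at 2.92 and 3.02 FPKM (1.04, 0.922 to 1.16), and its pair with Dnmt3b was 93.6% and 91.5% Dnmt3a. The Dnmt3a sum came about equally from its 2 rows: the row of 9735 bases had 1.51 and 1.57 FPKM, and the row of 5424 bases, which starts 84764 bases further in and stands for the shorter protein Dnmt3a2, had 1.41 and 1.45.

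Of the bromodomain proteins, the BET protein Brd2 had the highest sum, at 30.6 and 38.6 FPKM (1.26, 1.21 to 1.32). Of that sum, 59.1% and 61.6% came from a row of 4314 bases with a non-coding RefSeq identifier. The main coding row of Brd2, of 4487 bases, had 12.1 and 14.8 FPKM (1.22, 1.14 to 1.31), below Brd7. The BET protein Brd3 was level at 5.54 and 5.56 FPKM. Brd7, a subunit of the PBAF form of BAF, stood at 15.2 and 19.5 FPKM (1.29, 1.18 to 1.41), while Brd9, which defines another form, stood at 2.10 and 1.74 (0.830, 0.638 to 1.08). Brd1 and Brd8 had differences of 0.08 and 0.09. Among the other Arid genes, Arid5b led with 20.1 and 22.1 FPKM (1.10, 1.04 to 1.16), and Arid2, the PBAF subunit, stood at 5.57 and 5.88. Arid4a and Arid4b, which bind the retinoblastoma protein, stood at 5.01 and 5.68 FPKM and at 7.77 and 8.23. All 7 Arid genes at the minimum were above 0 (63.2% of all genes were), with differences from 0.01 to 0.20. The intervals of Arid1a, Arid1b, Arid2, Arid3b and Arid4b spanned 1, and the family median passed from 0.07 to -0.03 once genes of similar length were subtracted.

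Where a gene has several transcript rows, the sum was steadier than the rows. Of the 80 genes, 26 had more than 1 row, and in 23 the same row was highest in both libraries. The exceptions were Setdb1, Kdm4c and Dnmt1. For Setdb1, the row of 4619 bases had 2.12 and 3.52e-05 FPKM, and the row of 4622 bases 0.0122 and 2.95, although these rows share both ends and differ by 3 bases in length. For Kdm4c, the row of 4257 bases had 5.47 and 2.72 FPKM and the row of 4193 bases 0.00223 and 3.24, while the sum was 5.47 and 5.96. Hdac5 kept its top row of 3795 bases, which had 2.66 and 6.18 FPKM, while a row of 3798 bases had 2.27 and 0.0858. No isoform difference is read from rows this alike. With the highest row in place of the sum, 4 genes were 1.5-fold higher (Setdb1, Dnmt1, Hdac5 and Smarcb1) and 3 lower (Kdm4c, Kdm2b and Kdm3a), where the sums gave 0 and 0. The shares of all genes with this choice of row were not taken. Of 79 genes, 74 kept the sign of their difference.

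**Figure D5:**
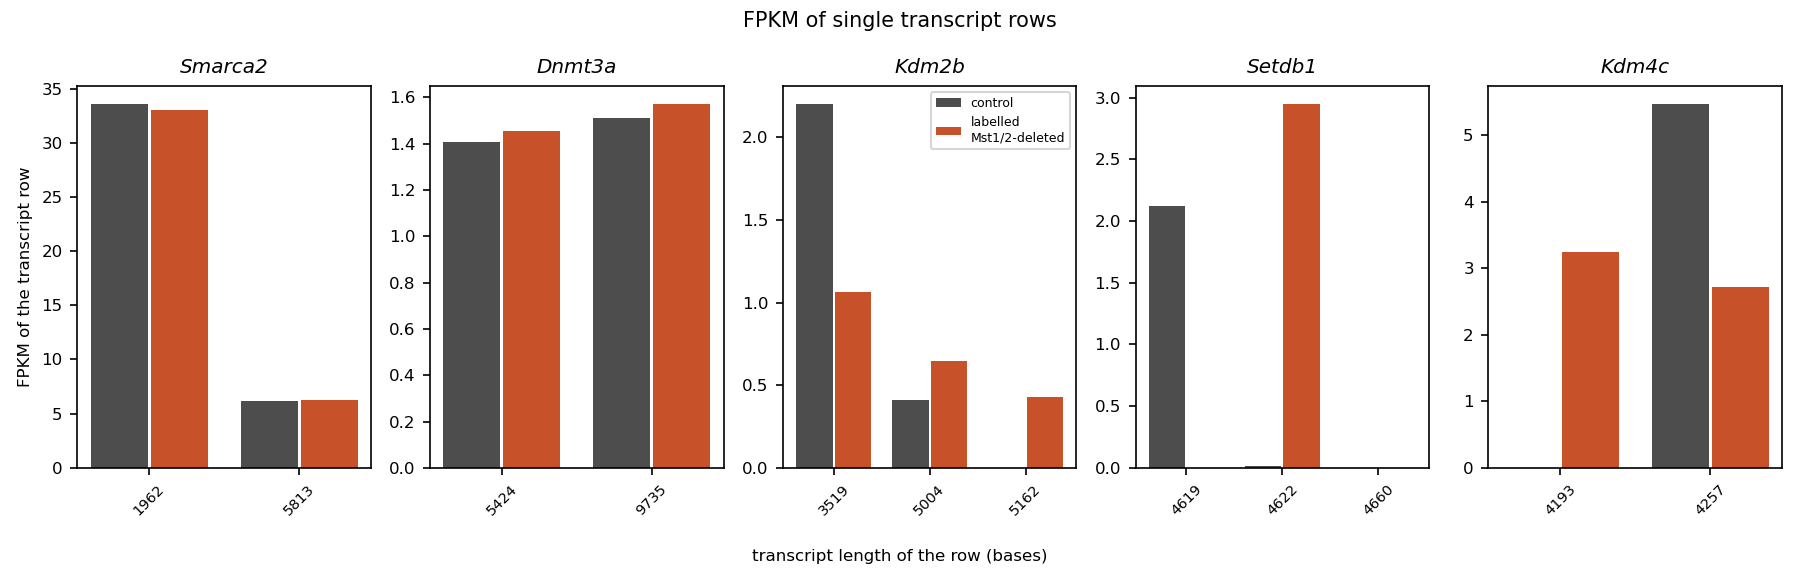
FPKM of each transcript row (bars, named by transcript length in bases) of 5 chromatin genes, with the control library in grey and the library labelled Mst1/2-deleted in orange; each panel has its own vertical axis from 0. The rows of Smarca2 and Dnmt3a keep their balance between the libraries, while Setdb1 and Kdm4c exchange rows of nearly the same length.

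Kdm2b differed between libraries in rows that are not near-identical. Its row of 3519 bases, which starts 88183 bases inside the row of 5004 bases, had 2.20 and 1.06 FPKM (0.483, 0.375 to 0.622). The row of 5004 bases had 0.412 and 0.649 FPKM, and a row of 5162 bases that starts near it had 1.85e-05 and 0.429. The short row's share was 84.2% and 49.7%, on about 209.7 and 90.7 reads. How the estimation shared reads among these rows was not tested. The short protein is known to lack the demethylase (JmjC) domain and to keep the domain that binds unmethylated CpG. The Dnmt3a and Kdm2b start windows are shown because each gene has an inner start of its own. They are from RefSeq (GRCm38.p6, 300 bases, 5′ to 3′, CpG in capitals), paired to the rows by the distance between the starts, which matched exactly for Dnmt3a and within 26 bases for Kdm2b. The positions are chr12:3806730-3807029 and chr12:3891494-3891793 on the plus strand for Dnmt3a, and chr5:122988458-122988757 and chr5:122900301-122900600 on the minus strand for Kdm2b:
Dnmt3a longer row: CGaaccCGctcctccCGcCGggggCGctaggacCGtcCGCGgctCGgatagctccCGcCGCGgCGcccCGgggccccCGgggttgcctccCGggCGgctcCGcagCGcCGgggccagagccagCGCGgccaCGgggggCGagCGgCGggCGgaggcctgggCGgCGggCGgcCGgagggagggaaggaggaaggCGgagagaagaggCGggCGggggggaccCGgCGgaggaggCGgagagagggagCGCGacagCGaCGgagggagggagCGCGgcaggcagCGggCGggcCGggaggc
Dnmt3a shorter row: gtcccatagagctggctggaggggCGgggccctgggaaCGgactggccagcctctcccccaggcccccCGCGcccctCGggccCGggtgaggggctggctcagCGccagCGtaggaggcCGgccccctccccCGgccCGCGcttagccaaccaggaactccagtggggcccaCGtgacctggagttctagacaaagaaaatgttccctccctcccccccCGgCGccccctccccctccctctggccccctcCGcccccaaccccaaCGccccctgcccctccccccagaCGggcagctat
Kdm2b longer row: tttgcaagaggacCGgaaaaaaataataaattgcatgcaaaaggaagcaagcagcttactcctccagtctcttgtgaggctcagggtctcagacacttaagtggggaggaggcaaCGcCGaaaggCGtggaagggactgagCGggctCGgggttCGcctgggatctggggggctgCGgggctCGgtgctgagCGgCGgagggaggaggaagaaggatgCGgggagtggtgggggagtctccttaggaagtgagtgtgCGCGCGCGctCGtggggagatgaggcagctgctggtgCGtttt
Kdm2b shorter row: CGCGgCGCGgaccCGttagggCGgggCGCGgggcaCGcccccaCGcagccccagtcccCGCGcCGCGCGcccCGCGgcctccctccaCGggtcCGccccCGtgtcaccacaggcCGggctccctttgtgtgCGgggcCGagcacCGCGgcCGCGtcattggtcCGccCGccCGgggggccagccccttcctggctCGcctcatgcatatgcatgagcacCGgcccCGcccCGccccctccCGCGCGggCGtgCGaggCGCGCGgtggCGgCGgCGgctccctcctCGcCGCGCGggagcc
The outer Dnmt3a start holds 46 CpG and the inner start 18. For Kdm2b the order is the opposite, with 18 CpG at the outer and 49 at the inner start. Windows with as many as 46 CpG are 1.65% of the RefSeq table, with 49 they are 1.02%, and with 18 they are 29.7%. In both libraries the CpG-rich inner start of Kdm2b thus belonged to the single row with the highest FPKM, with a share of 84.2% and 49.7%. The Dnmt3a rows, with unlike starts, had nearly equal FPKM.

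Other chromatin genes gave the same picture. A list of 150 acetyltransferases, further methyltransferases and demethylases, remodeller partners, corepressor, COMPASS and Polycomb subunits, DNA methylation readers and heterochromatin proteins had 147 members in the tables, of which 130 reached the minimum. Their median difference was 0.09 and 92 were above 0 (70.8%). At 1.5-fold, 1 was higher and 1 lower (3.02% and 2.59% of all genes were), too few genes to be read as below these shares. Tdg, the glycosylase that removes oxidised methylcytosine, stood at 0.326 and 1.61 FPKM (4.93, 3.21 to 7.63) on about 28 and 122 reads. Tdg has pseudogene copies in the mouse genome, so its value is uncertain where reads fit several copies. Pcgf1, a subunit of the Polycomb complex that contains Kdm2b, stood at 5.10 and 2.80 FPKM, 1.82-fold lower (1.33 to 2.55). The most abundant of the list were Mll5 (20.3 and 21.9 FPKM), the corepressor Ncor1 (18.2 and 19.7), the COMPASS subunit Dpy30 (15.7 and 19.6), the histone-binding NuRD subunit Rbbp7 (16.8 and 17.5) and the NuRD subunit Mta3 (14.9 and 16.4).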

How the data were processed

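The submitters' processing notes name TopHat, Cufflinks and mm9, with versions, settings and strandedness not given in the sources used here. The authors deposited, per the file headers, FPKM and coverage (a signal, mean read depth) for 28107 RefSeq transcript rows per library. Here the rows were joined by identifier, position and length, and FPKM was summed per symbol. The difference is log2 of FPKM + 1 in the library labelled Mst1/2-deleted minus control, for genes with at least 1 FPKM in at least 1 library; the pseudocount understates low genes. Approximate reads are coverage times length over 47.1 bases, the median of single-row values between 25 and 75 bases, an assumption. Starts were raised by 1, since 99.7% of 643 microRNA rows then span their length. All 150 rows of the chromatin genes had status OK. FPKM of near-identical or overlapping genes depends on how shared reads were assigned. 1 gene of the set is counted but not reported here. RefSeq windows matched 76 of the 95 genes by symbol. Members and lists were chosen with earlier results of these data known. Every member may be named; full values went to the 10 largest differences, the 10 highest means and each family's extremes, and from the wider list to genes past 1.5-fold and the 5 highest; transcript rows and pairs were singled out after their values were seen. The steps were tested on simulated data (Python 3.11.15, pandas 2.3.3, scipy 1.17.1). The simulated folds held no noise between libraries, so they checked the arithmetic and not the error of these data. The alternatives tried were other pseudocounts, filters, row choices, TPM, length windows and status.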

Additional observations from a re-analysis of the deposited data

How the results depend on the processing

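No paired analysis was possible because each genotype has 1 pooled library with no replicate number, and for the same reason no replicate could be left out. The count of chromatin genes 1.5-fold higher, 0 as reported, became 3 with a pseudocount of 0.1 (Ezh2, Smarcd1 and Hdac8), 4 with the highest row per symbol (Dnmt1, Setdb1, Smarcb1 and Hdac5) and 1 after conversion to TPM (Smarca1), where 90 genes reach the minimum instead of 80. The count 1.5-fold lower became 1 with a pseudocount of 0.1 (Setd6), 3 with the highest row (Kdm2b, Kdm3a and Kdm4c) and 3 with TPM (Setd6, Sirt4 and Hdac9); Smarca1 and Hdac9 lie below the minimum on FPKM. The counts stayed 0 under the other alternatives run. Shares of all genes were not taken under the alternatives, so the changed counts have no background here. The median of the chromatin genes, 0.09, became 0.052 with a pseudocount of 5 and -0.0041 once genes of similar length were subtracted. Its excess over genes of similar length, -0.0060, became 0.0015 with a pseudocount of 5, 0.054 with no filter and 0.0099 with TPM. The median of the wider chromatin list, 0.09, became 0.10 with a pseudocount of 0.1, 0.050 with a pseudocount of 5, 0.11 with a filter at 5 FPKM, 0.056 with TPM and -0.0060 with genes of similar length subtracted. With rows of at least 60% of the longest row only, an alternative added after the data were seen, Smarca2 over Smarca4 was 0.771 (control) and 0.631. With the highest row, 74 of 79 genes kept their sign, and Brd3, Kdm4c, Smarca4, Smarcd2 and Sirt2 did not. The 1.25-fold counts, also added later, ran from 2 to 13 higher and from 0 to 5 lower. Except where the construction shows it (other rows, fewer or more genes), the cause was not tested. Depth limits the low genes most: the fewest reads behind a member at the minimum were about 33.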
